A study of Mus musculus with 4 samples.

Results

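Basal interfollicular keratinocytes are the cells of the epidermis that sit on the basement membrane between hair follicles. They were described here in droplet single-cell RNA sequencing of mouse back skin, and 3986 of the 23455 barcodes in the data were counted as such cells. A barcode was taken when it passed the filters on detected genes and mitochondrial UMIs, carried at least 4 of 8 epithelial genes and more of them than of 8 fibroblast genes, and held more Krt5 and Krt14 UMIs than Krt1 and Krt10 UMIs. It also had fewer than 5 UMIs of Krt79 and of Sostdc1 per 10000, no UMI of Lhx2, and fewer than 4 UMIs over Mki67, Top2a, Ube2c and Birc5. These limits were set against upper follicle, lower follicle and cycling cells, and cells with low counts of these genes stayed in. The cells were thus chosen by measured levels of these genes, whose values are given as a description only. Per the labels, the mice were of the CD1 strain and 7 to 8 weeks old, and sorted back-skin cells were run with Chromium 3′ version 2 chemistry at a target of 10000 cells a library and about 50000 reads a cell. The libraries were Ovol1_null_IMQ (Ovol1 null, imiquimod), Control_IMQ (control, imiquimod), Ovol1_null_Untreated (Ovol1 null, untreated) and Control_Untreated (control, untreated), with 1 library each. Imiquimod, an agonist of Toll-like receptor 7 that causes a psoriasis-like inflammation, was given as 1 dose of 62.5 mg of 5% cream on the shaved back. The labels do not say how many mice were pooled in a library, which cells the sort kept, what genotype the controls had, which part of Ovol1 is missing in the null allele, or how long after the dose the skin was taken. With 1 library a group no difference below has a replicate check, and the effect of a mouse or a preparation cannot be told apart from that of genotype or treatment.

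Basal keratinocytes anchor to the basement membrane through integrins, collagen XVII and plectins of the hemidesmosome and express the keratins Krt5, Krt14 and Krt15. As they leave the basement membrane they switch to Krt1 and Krt10 and then to cornified envelope proteins, whereas wounded or psoriatic epidermis makes the activation keratins Krt6, Krt16 and Krt17 together with S100 alarmins. Ovol1 encodes a zinc finger repressor that acts in epidermal differentiation.

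The cells numbered 822 in labelled Ovol1_null_IMQ, 1449 in Control_IMQ, 1010 in labelled Ovol1_null_Untreated and 705 in Control_Untreated, which was 14.5%, 25.6%, 19.1% and 11.4% of the barcodes kept in the libraries in that order. Of the keratinocytes alone they were 45.5%, 49.5%, 35.5% and 35.2%, and a sort can set such shares. Median depth was 13052 UMIs a cell in labelled Ovol1_null_IMQ, against 5028 in Control_IMQ, 5111 in labelled Ovol1_null_Untreated and 4788 in Control_Untreated. More than 10000 UMIs were held by 65.0% of the basal cells of labelled Ovol1_null_IMQ, and by 6.14%, 5.74% and 4.11% of those of the other libraries in the same order. Most gene lists described for labelled Ovol1_null_IMQ, and some of its named genes, are therefore also given over the cells of 3100 to 10000 UMIs, called matched-depth cells below, of which there were 284, 1065, 807 and 558 with medians of 6116, 5498, 5318 and 5065 UMIs. Whether depth has a part in a result was not tested beyond these values. Levels are UMIs of a gene summed over the basal cells of a library and scaled to a total of 1000000 UMIs (CPM), from 11690065 UMIs in labelled Ovol1_null_IMQ, 7961981 in Control_IMQ, 5584272 in labelled Ovol1_null_Untreated and 3649440 in Control_Untreated. Intervals of ratios between libraries are exact 95% binomial intervals, which cover counting error only. Among the basal cells 8 barcode sequences occurred in more than 1 library.

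The marker genes of the label were present in all 4 libraries, but their balance differed. Krt14, the main type I keratin of the basal layer, had 21194 CPM in labelled Ovol1_null_IMQ, 9408 in Control_IMQ, 9655 in labelled Ovol1_null_Untreated and 8267 in Control_Untreated. Krt5, its partner, had 7083 CPM in labelled Ovol1_null_IMQ, 3838 in Control_IMQ, 5114 in labelled Ovol1_null_Untreated and 4903 in Control_Untreated. Both were used by the rule. Itgb4, the integrin β4 subunit of the hemidesmosome, had 88.9 CPM in labelled Ovol1_null_IMQ, 98.7 in Control_IMQ, 132 in labelled Ovol1_null_Untreated and 110.2 in Control_Untreated. Krt15, a type I keratin of resting basal cells, had 706 CPM in labelled Ovol1_null_IMQ, 6096 in Control_IMQ, 7754 in labelled Ovol1_null_Untreated and 9042 in Control_Untreated. The last marker therefore went against the label in the library labelled Ovol1_null_IMQ, where the cells are basal by the keratin ratio of the rule rather than by Krt15. Krtdap, Sbsn and Krt77, the suprabasal markers outside the rule, summed to 8681 CPM in the basal cells of labelled Ovol1_null_IMQ and to 23644 CPM in its suprabasal cells. The same sums were 2733 and 17918 CPM in Control_IMQ, 1423 and 15053 CPM in labelled Ovol1_null_Untreated, and 997 and 16120 CPM in Control_Untreated. Krt17, Defb6 and Cst6, markers of the upper hair follicle that inflamed epidermis also makes, summed to 3074, 1804, 756 and 944 CPM in the basal cells of the libraries in that order.

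At the edge of the keratin rule, 61 basal cells had between 0.8 and 1 UMIs of Krt1 and Krt10 for each UMI of Krt5 and Krt14, and 121 cells just outside had between 0.8 and 1 UMIs of Krt5 and Krt14 for each UMI of Krt1 and Krt10. Krt15 stood at 5842 CPM in the cells inside and 4819 CPM in those outside. Just inside the Krt79 limit were 52 cells and just outside 20, the Sostdc1 limit had 112 inside and 101 outside, and the limit on cycling genes had 64 inside and 51 outside. A further 171 cells met every condition except for 1 UMI of Lhx2.

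Transcripts of other cells were present in all libraries, in amounts that differed between them. The fibroblast markers Col1a1, Col3a1 and Sparc summed to 794 CPM in labelled Ovol1_null_IMQ, 681 in Control_IMQ, 3434 in labelled Ovol1_null_Untreated and 2953 in Control_Untreated, against 21864, 19723, 79719 and 93184 CPM in the fibroblasts of those libraries. The 5 Langerhans cell genes (Cd207, Cd74, H2-Ab1, H2-Aa and Mfge8) summed to 980, 641, 612 and 1932 CPM in that order, the 5 macrophage genes to 57.0, 107, 114 and 265 CPM, and the 4 T cell genes found to 58.1, 20.2, 61.8 and 32.1 CPM. No marker of these 4 lists was at 0 in any library. The part of free RNA or doublets in the results was not tested, and the share of cells with a UMI in fibroblasts is given beside the shares in basal cells.

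Ovol1 itself (chr19:5549136-5560646, minus strand, GRCm38) had 60.5 CPM in labelled Ovol1_null_IMQ, 25.1 in Control_IMQ, 13.97 in labelled Ovol1_null_Untreated and 11.5 in Control_Untreated. Its 3′ tags were thus present, and highest, in the basal cells of the library labelled Ovol1_null_IMQ, 2.41-fold higher (95% interval 2.06 to 2.83) than in Control_IMQ. In matched-depth cells they were 1.68-fold higher (95% interval 1.201 to 2.34), which is within the rule. They were 2.18-fold higher (95% interval 1.56 to 3.12) in Control_IMQ than in Control_Untreated. Since the deleted part is not given, a tag at the 3′ end does not check the genotype, and the name null is used here only as a label. Ovol2, its paralogue, had 9.07 CPM in labelled Ovol1_null_IMQ, 12.6 in Control_IMQ, 16.1 in labelled Ovol1_null_Untreated and 16.4 in Control_Untreated and passed the 2-fold rule in none of the comparisons.

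A gene was measured in a comparison when it had at least 20 UMIs over both libraries, and it passed the 2-fold rule when its CPM ratio was 2 or more either way with an interval on one side of 1. Between imiquimod and untreated libraries labelled Ovol1 null, 9.61% of 11617 measured genes were higher (1116) and 16.4% were lower (1902). Between the control libraries the shares were 4.72% higher (523) and 4.78% lower (529) of 11076. Labelled Ovol1_null_IMQ against Control_IMQ gave 9.95% higher (1172) and 12.6% lower (1485) of 11778. Labelled Ovol1_null_Untreated against Control_Untreated gave 1.81% higher (195) and 1.38% lower (148) of 10757. In matched-depth cells the first comparison gave 1080 higher and 670 lower of 10102, and the third gave 1384 higher and 572 lower of 10374, so that the surplus of lower genes in these comparisons was not seen there. Higher genes were 37.0% of those past the rule in the first comparison and 49.7% in the second, and with TMM scaling, which centres the bulk of genes, they were 48.1% (1405 higher, 1515 lower) and 59.3% (610 higher, 419 lower). The median log2 ratio over all measured genes, against which lists are read, was -0.15, -0.15, -0.03 and -0.02 in the order of the comparisons, and 0.14 and 0.26 for the first and the third in matched-depth cells. TMM scaling moved it to -0.01 in the first and -0.02 in the second.

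**Figure D1:**
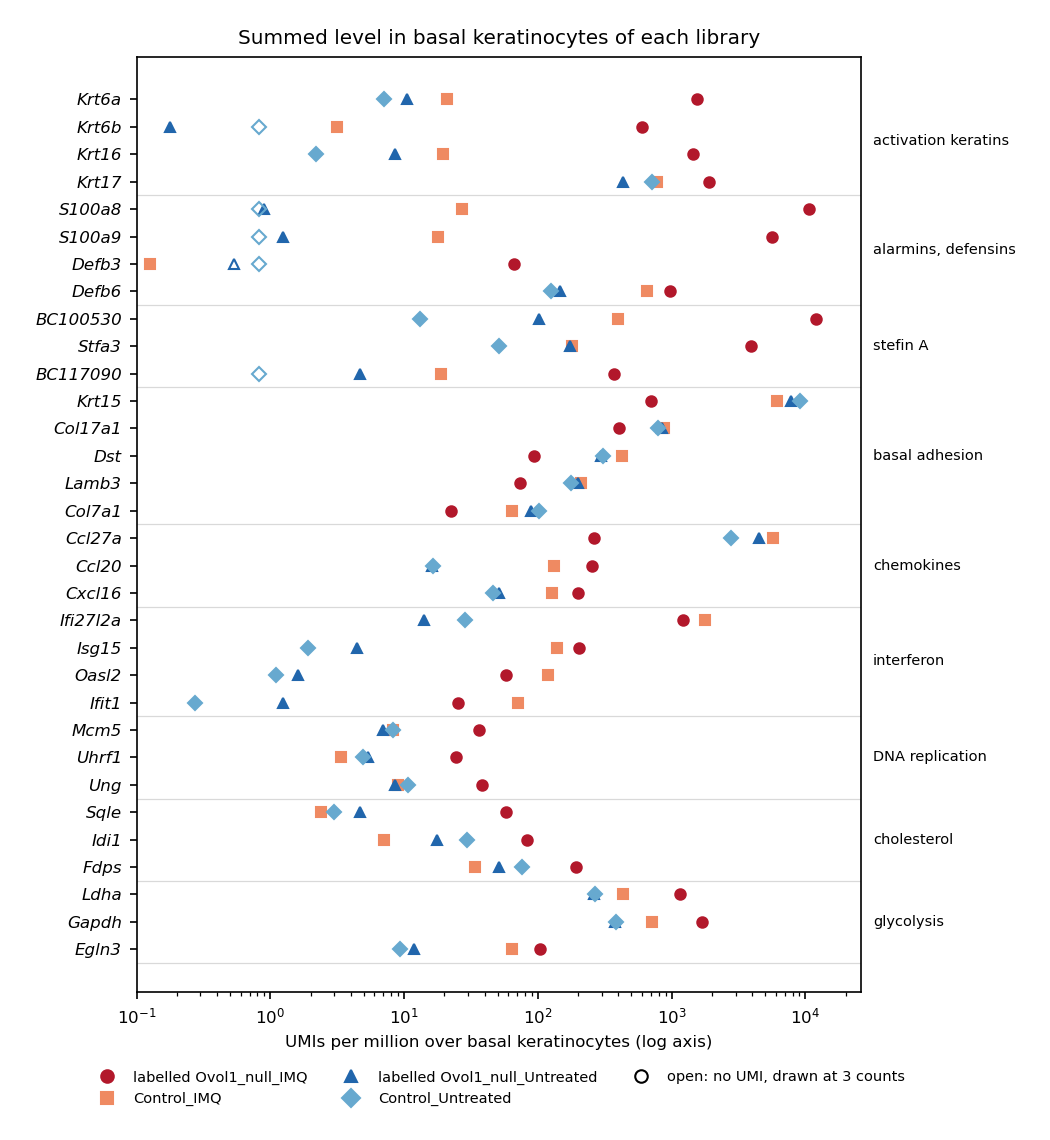
Levels of named genes in basal keratinocytes, in CPM on a log axis, with 1 point per library and open points for no UMI, drawn at the level of 3 counts. The library labelled Ovol1_null_IMQ stands far to the right for activation keratins, S100 alarmins and stefins and to the left for Krt15 and Ccl27a, whereas the interferon genes are high in both imiquimod libraries.

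The S100 alarmins S100a8 and S100a9 were among the genes with the largest ratios after imiquimod in the libraries labelled Ovol1 null. S100a8 and S100a9 encode the subunits of calprotectin, a neutrophil-attracting and metal-binding protein. S100a8 had 10583 CPM in labelled Ovol1_null_IMQ, 26.9 in Control_IMQ, 0.895 in labelled Ovol1_null_Untreated and 0 in Control_Untreated, so that 0 UMIs in the last library allow up to 0.822 CPM. S100a9 had 5606 CPM in labelled Ovol1_null_IMQ, 17.96 in Control_IMQ, 1.254 in labelled Ovol1_null_Untreated and 0 in Control_Untreated. S100a8 was 11819.8-fold higher (95% interval 5065 to 36403) in labelled Ovol1_null_IMQ than in labelled Ovol1_null_Untreated, where it rested on 5 UMIs. It was at least 32.7-fold higher in Control_IMQ than in Control_Untreated and 394-fold higher (95% interval 344 to 452) in labelled Ovol1_null_IMQ than in Control_IMQ. The UMIs were spread over many cells in labelled Ovol1_null_IMQ, where the 5 cells with the most held 5.88% of them, whereas in Control_IMQ 72 cells held S100a8 and 5 of them 57.5% of its UMIs. In matched-depth cells S100a8 stood at 3667 CPM in labelled Ovol1_null_IMQ and 26.4 CPM in Control_IMQ. Both genes lie in the epidermal differentiation complex (chr3:90511034-93564643, GRCm38), where 19 of 31 measured genes were higher and 2 lower between the libraries labelled Ovol1 null, and 5 were higher and 1 lower of 21 between the control libraries. Several of the higher genes, such as Sprr2h and Sprr1b, had 0 CPM in labelled Ovol1_null_Untreated and were measured only through their level in labelled Ovol1_null_IMQ. Most of these were not measured between the control libraries, so the counts cover different genes and are a description only.

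Of the other alarmins and antimicrobial proteins, 8 of 10 measured members of the list were higher and 2 lower after imiquimod in the libraries labelled Ovol1 null, S100a8 and S100a9 included, with a median log2 ratio of 6.001, or 4.78 with members at 0 in 1 library set to their bound. In matched-depth cells the list gave 8 higher and 1 lower of 9 (median log2 ratio 6.91). Between the control libraries 6 of 8 were higher, with a median of 2.68. Defb3, an inducible beta-defensin, had 66.4 CPM in labelled Ovol1_null_IMQ, 0.126 in Control_IMQ, 0 in labelled Ovol1_null_Untreated and 0 in Control_Untreated. It was detected in a single UMI outside the library labelled Ovol1_null_IMQ. Defb6, another beta-defensin, had 974 CPM in labelled Ovol1_null_IMQ, 659 in Control_IMQ, 147 in labelled Ovol1_null_Untreated and 125 in Control_Untreated and was higher with imiquimod in both genotype labels. Defb1, the constitutive beta-defensin, had 25.7 CPM in labelled Ovol1_null_IMQ, 131 in Control_IMQ, 93.7 in labelled Ovol1_null_Untreated and 133 in Control_Untreated, and it was 5.09-fold lower (95% interval 4.48 to 5.81) in labelled Ovol1_null_IMQ than in Control_IMQ. Saa3, serum amyloid A3, had 583 CPM in labelled Ovol1_null_IMQ, 57.4 in Control_IMQ, 3.22 in labelled Ovol1_null_Untreated and 0 in Control_Untreated. Its level in the fibroblasts was 18096 CPM in labelled Ovol1_null_IMQ and 1646 CPM in Control_IMQ, above the basal cells in both. Lcn2, an iron-scavenging lipocalin, had 177 CPM in labelled Ovol1_null_IMQ, 23.6 in Control_IMQ, 7.52 in labelled Ovol1_null_Untreated and 17.5 in Control_Untreated, and its fibroblast level in labelled Ovol1_null_IMQ was 807 CPM. The values of Saa3 and Lcn2 in basal cells are therefore not shown to be their own. Defb6 was also found in fibroblasts. In cells thinned to 2000 UMIs it was detected in 42.1% of basal cells and 30.4% of fibroblasts of Control_IMQ. In labelled Ovol1_null_IMQ the shares were 43.6% and 10.4%. The part of free RNA in its values was not tested.

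All 4 activation keratins were higher in labelled Ovol1_null_IMQ than in either library set against it. Krt6a, a type II keratin of wounded epidermis, had 1534 CPM in labelled Ovol1_null_IMQ, 21.1 in Control_IMQ, 10.6 in labelled Ovol1_null_Untreated and 7.12 in Control_Untreated. Krt6b, its near copy, had 601 CPM in labelled Ovol1_null_IMQ, 3.14 in Control_IMQ, 0.179 in labelled Ovol1_null_Untreated and 0 in Control_Untreated, and reads could be split between the copies in ways not given in the sources used here. Krt16, their type I partner, had 1449 CPM in labelled Ovol1_null_IMQ, 19.6 in Control_IMQ, 8.596 in labelled Ovol1_null_Untreated and 2.19 in Control_Untreated. Krt6a was 145-fold higher (95% interval 112 to 191) with imiquimod in the libraries labelled Ovol1 null, and 2.96-fold higher (95% interval 1.95 to 4.67) in the control libraries. Krt16 was 169-fold higher (95% interval 127 to 229) in the first and 8.94-fold higher (95% interval 4.43 to 21.1) in the second. In matched-depth cells Krt6a stood at 827 CPM in labelled Ovol1_null_IMQ against 18.5 CPM in Control_IMQ, and Krt16 at 198 against 17.6 CPM. Krt17, present in all libraries, had 1915 CPM in labelled Ovol1_null_IMQ, 773 in Control_IMQ, 432 in labelled Ovol1_null_Untreated and 717 in Control_Untreated, with 5 cells holding 50.2% of its UMIs in Control_Untreated, and did not pass the rule between the control libraries. The control imiquimod library thus held Krt6a and Krt16 above Control_Untreated, at levels no higher than 21.1 CPM. Its 25 Krt6b UMIs lay in 3 cells, with 92% of them in 1 cell.

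The stefin A family, intracellular cysteine protease inhibitors encoded side by side on chr16:36119946-36455392, followed the same order with a higher base level in the libraries labelled Ovol1 null. BC100530 had 11917 CPM in labelled Ovol1_null_IMQ, 396 in Control_IMQ, 103 in labelled Ovol1_null_Untreated and 13.2 in Control_Untreated. Stfa3 had 3931 CPM in labelled Ovol1_null_IMQ, 181 in Control_IMQ, 174 in labelled Ovol1_null_Untreated and 51.2 in Control_Untreated. Csta1 had 162 CPM in labelled Ovol1_null_IMQ, 4.65 in Control_IMQ, 3.22 in labelled Ovol1_null_Untreated and 1.64 in Control_Untreated. After imiquimod, 6 of 6 measured members were higher in the libraries labelled Ovol1 null (median log2 ratio 5.77, and 4.07 in matched-depth cells) and 4 of 5 in the control libraries (1.82). Without treatment BC100530 was already 7.801-fold higher (95% interval 5.81 to 10.7) and Stfa3 3.39-fold higher (95% interval 2.89 to 3.98) in labelled Ovol1_null_Untreated than in Control_Untreated. The copies of this family are near-identical in sequence, so that the split of UMIs among its members is uncertain, and these values hold best for the family together.

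Of the cornified envelope genes, 2 of 5 measured members were higher and 0 lower with imiquimod between the control libraries (median log2 ratio -0.15). Members such as Sprr1b and Sprr2h had too few UMIs there to be measured. The counts of both genotype labels thus cover different genes and are a description only. Between the libraries labelled Ovol1 null 11 of 13 measured members of the list were higher and 1 lower with imiquimod, of which 6 had no UMI in labelled Ovol1_null_Untreated: the median log2 ratio was 5.35, and 3.18 with those members at their bound. In matched-depth cells fewer members were measured, with 4 higher and 2 lower of 7 (median log2 ratio 2.66). Sprr1b, a small proline-rich crosslinked protein, had 82.4 CPM in labelled Ovol1_null_IMQ, 1.63 in Control_IMQ, 0 in labelled Ovol1_null_Untreated and 0.548 in Control_Untreated. Sprr2h had 119.6 CPM in labelled Ovol1_null_IMQ, 1.005 in Control_IMQ, 0 in labelled Ovol1_null_Untreated and 0 in Control_Untreated, with the same doubt about near-identical Sprr2 copies. Lor, loricrin of the late envelope, had 1.71 CPM in labelled Ovol1_null_IMQ, 4.52 in Control_IMQ, 5.73 in labelled Ovol1_null_Untreated and 6.85 in Control_Untreated and was the member that was lower. Flg, Flg2 and Lce3c, other late genes, were at or near 0 in every library. Ivl, involucrin, had 12.5 CPM in labelled Ovol1_null_IMQ, 3.01 in Control_IMQ, 2.15 in labelled Ovol1_null_Untreated and 3.29 in Control_Untreated.

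Early differentiation genes differed in both directions in labelled Ovol1_null_IMQ. Between the libraries labelled Ovol1 null 9 of 19 members were higher and 3 lower with imiquimod, and between the control libraries 3 were higher and 2 lower of 18. Matched-depth cells of the libraries labelled Ovol1 null gave 8 higher and 2 lower of 18 (median log2 ratio 0.75). Krtdap, a secreted protein of differentiating keratinocytes, had 7353 CPM in labelled Ovol1_null_IMQ, 2232 in Control_IMQ, 1080.4 in labelled Ovol1_null_Untreated and 725 in Control_Untreated. Fabp5, the epidermal fatty acid binding protein, had 3324 CPM in labelled Ovol1_null_IMQ, 144 in Control_IMQ, 352 in labelled Ovol1_null_Untreated and 291 in Control_Untreated. It was 9.43-fold higher (95% interval 9.01 to 9.87) with imiquimod in the libraries labelled Ovol1 null. Between the control libraries it was 2.02-fold lower (95% interval 1.86 to 2.200), a direction that turned round under 3 alternatives (log2 ratio 0.68 to 0.93, such as cells thinned to 2000 UMIs), and 5 cells of labelled Ovol1_null_Untreated and 5 of Control_Untreated held 62.96% and 53.3% of its UMIs. Lypd3, a membrane protein of the spinous layer, had 446 CPM in labelled Ovol1_null_IMQ, 164 in Control_IMQ, 69.8 in labelled Ovol1_null_Untreated and 49.3 in Control_Untreated. Krt77, a keratin of the suprabasal layer, had 2.99 CPM in labelled Ovol1_null_IMQ, 78.1 in Control_IMQ, 58.2 in labelled Ovol1_null_Untreated and 54.5 in Control_Untreated and was 19.4-fold lower (95% interval 13.7 to 28.4) in labelled Ovol1_null_IMQ than in labelled Ovol1_null_Untreated. Grhl3, a transcription factor of barrier formation, had 19.3 CPM in labelled Ovol1_null_IMQ, 2.14 in Control_IMQ, 1.61 in labelled Ovol1_null_Untreated and 2.74 in Control_Untreated. Klf4, another factor of the suprabasal layers, had 176 CPM in labelled Ovol1_null_IMQ, 228 in Control_IMQ, 225 in labelled Ovol1_null_Untreated and 280.3 in Control_Untreated and stayed within the rule. Lgals7, galectin-7, had 18118 CPM in labelled Ovol1_null_IMQ, 12484 in Control_IMQ, 11362 in labelled Ovol1_null_Untreated and 11133 in Control_Untreated and was within the rule as well.

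Some genes of gap junctions were higher in labelled Ovol1_null_IMQ. Gjb2, connexin 26, had 127 CPM in labelled Ovol1_null_IMQ, 0.879 in Control_IMQ, 0.358 in labelled Ovol1_null_Untreated and 2.74 in Control_Untreated and was 353-fold higher (95% interval 97.6 to 2919.7) in labelled Ovol1_null_IMQ than in labelled Ovol1_null_Untreated, where it rested on 2 UMIs. Gjb6, connexin 30, had 18.99 CPM in labelled Ovol1_null_IMQ, 1.005 in Control_IMQ, 2.15 in labelled Ovol1_null_Untreated and 3.84 in Control_Untreated, and Gja1, connexin 43, had 356 CPM in labelled Ovol1_null_IMQ, 101 in Control_IMQ, 102 in labelled Ovol1_null_Untreated and 144 in Control_Untreated. Both were higher in labelled Ovol1_null_IMQ than in Control_IMQ, Gjb6 18.9-fold higher (95% interval 9.43 to 44.3) and Gja1 3.52-fold higher (95% interval 3.27 to 3.803). In matched-depth cells Gjb2 was 75.4-fold higher (95% interval 19.96 to 637) with imiquimod in the libraries labelled Ovol1 null. Between the imiquimod libraries at that depth Gja1 was 2.25-fold higher (95% interval 1.98 to 2.56) in labelled Ovol1_null_IMQ, and Gjb6 had too few UMIs to be counted as measured. Of the desmosomal genes in the list, Dsg3 had 35.8 CPM in labelled Ovol1_null_IMQ, 26.6 in Control_IMQ, 24.4 in labelled Ovol1_null_Untreated and 32.6 in Control_Untreated and Jup, plakoglobin, had 410.0 CPM in labelled Ovol1_null_IMQ, 297 in Control_IMQ, 281 in labelled Ovol1_null_Untreated and 279 in Control_Untreated, and neither passed.

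Genes of basement membrane adhesion were lower in labelled Ovol1_null_IMQ. Between the libraries labelled Ovol1 null 10 of 18 members were lower with imiquimod and 0 higher (median log2 ratio -1.19), and between the control libraries 2 were lower (-0.21). In labelled Ovol1_null_IMQ against Control_IMQ 9 were lower (-1.01). Krt15, with the values above, was 10.97-fold lower (95% interval 10.7 to 11.2) with imiquimod in the libraries labelled Ovol1 null, and 1.48-fold lower (95% interval 1.46 to 1.504) in the control libraries, which is within the rule. Dst, which encodes the hemidesmosomal plakin BPAG1, had 93.5 CPM in labelled Ovol1_null_IMQ, 427 in Control_IMQ, 295 in labelled Ovol1_null_Untreated and 305 in Control_Untreated. Col17a1, the transmembrane collagen of the hemidesmosome, had 405 CPM in labelled Ovol1_null_IMQ, 873 in Control_IMQ, 852 in labelled Ovol1_null_Untreated and 793 in Control_Untreated. Lamb3, a chain of laminin-332, had 73.2 CPM in labelled Ovol1_null_IMQ, 209 in Control_IMQ, 199 in labelled Ovol1_null_Untreated and 176 in Control_Untreated, and Col7a1, the anchoring fibril collagen, had 22.3 CPM in labelled Ovol1_null_IMQ, 63.6 in Control_IMQ, 88.1 in labelled Ovol1_null_Untreated and 103 in Control_Untreated. The integrins did not pass the rule in any comparison: Itga6 had 126 CPM in labelled Ovol1_null_IMQ, 118 in Control_IMQ, 162 in labelled Ovol1_null_Untreated and 155 in Control_Untreated, and Itga3, Itgb1 and Itgb4 were likewise within 2-fold.

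The differences of this list were smaller at matched depth. In matched-depth cells 5 of its members were lower with imiquimod in the libraries labelled Ovol1 null (median log2 ratio -0.55) and 2 in labelled Ovol1_null_IMQ against Control_IMQ, where the median was 0.04. Krt15 stood at 2471 CPM in those cells of labelled Ovol1_null_IMQ against 6319.8 CPM in Control_IMQ, which is 2.56-fold lower (95% interval 2.48 to 2.64). Col17a1 stood at 677 against 900.5 CPM and Dst at 163 against 425 CPM. Krt15 was therefore lower at both depth settings, whereas the difference in Col17a1 was within 2-fold at matched depth.

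Signals and receptors of the basal layer also differed. Ccl27a, a chemokine of keratinocytes that draws skin-homing T cells, had 264 CPM in labelled Ovol1_null_IMQ, 5720.1 in Control_IMQ, 4458 in labelled Ovol1_null_Untreated and 2781 in Control_Untreated, and it was 21.6-fold lower (95% interval 20.9 to 22.4) in labelled Ovol1_null_IMQ than in Control_IMQ. In matched-depth cells it stood at 869.8 against 5741 CPM. The annotation holds near-identical copies named Ccl27a and Ccl27b, and Ccl27b had 4.96 CPM in labelled Ovol1_null_IMQ, 72.97 in Control_IMQ, 51.2 in labelled Ovol1_null_Untreated and 48.5 in Control_Untreated, in the same order of libraries. Ccl20, which draws cells with the receptor Ccr6, had 254 CPM in labelled Ovol1_null_IMQ, 131 in Control_IMQ, 16.3 in labelled Ovol1_null_Untreated and 16.4 in Control_Untreated, and Cxcl16 had 199 CPM in labelled Ovol1_null_IMQ, 128 in Control_IMQ, 50.9 in labelled Ovol1_null_Untreated and 46.6 in Control_Untreated. Both were higher with imiquimod in both genotype labels, Ccl20 15.6-fold higher (95% interval 12.7 to 19.4) and 7.96-fold higher (95% interval 6.13 to 10.5) in libraries labelled Ovol1 null and in control libraries in that order. Cxcl1, a neutrophil chemokine, had 66.4 CPM in labelled Ovol1_null_IMQ, 16.96 in Control_IMQ, 5.91 in labelled Ovol1_null_Untreated and 3.01 in Control_Untreated. Il1r2, the decoy receptor of interleukin-1, had 56.5 CPM in labelled Ovol1_null_IMQ, 302 in Control_IMQ, 201 in labelled Ovol1_null_Untreated and 196 in Control_Untreated, and was 5.34-fold lower (95% interval 4.89 to 5.82) in labelled Ovol1_null_IMQ than in Control_IMQ, and 2.85-fold lower (95% interval 2.45 to 3.33) in matched-depth cells. Il33 and Il1rn did not pass in any comparison, with 93.2 CPM in labelled Ovol1_null_IMQ, 79.1 in Control_IMQ, 96.9 in labelled Ovol1_null_Untreated and 98.6 in Control_Untreated for the first.

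Growth factor genes included Areg, amphiregulin, with 17.9 CPM in labelled Ovol1_null_IMQ, 2.51 in Control_IMQ, 2.87 in labelled Ovol1_null_Untreated and 10.1 in Control_Untreated, and Tgfa, with 20.1 CPM in labelled Ovol1_null_IMQ, 4.65 in Control_IMQ, 3.76 in labelled Ovol1_null_Untreated and 4.11 in Control_Untreated, both ligands of the EGF receptor. In Control_Untreated 1 cell held 51.4% of the Areg UMIs. Egfr itself had 20.1 CPM in labelled Ovol1_null_IMQ, 19.2 in Control_IMQ, 22.03 in labelled Ovol1_null_Untreated and 20.8 in Control_Untreated and did not pass. Igfbp3, a binding protein of insulin-like growth factors made by basal cells, had 16.00 CPM in labelled Ovol1_null_IMQ, 172 in Control_IMQ, 145 in labelled Ovol1_null_Untreated and 148 in Control_Untreated and was 10.7-fold lower (95% interval 9.22 to 12.6) in labelled Ovol1_null_IMQ than in Control_IMQ, and 13.9-fold lower (95% interval 9.12 to 22.2) in matched-depth cells. Fgfr2 had 19.7 CPM in labelled Ovol1_null_IMQ, 83.8 in Control_IMQ, 100.3 in labelled Ovol1_null_Untreated and 97.8 in Control_Untreated and was 4.26-fold lower (95% interval 3.66 to 4.97), and 2.72-fold lower (95% interval 2.04 to 3.69) in matched-depth cells. Among Wnt genes 7 of 18 were lower and 0 higher with imiquimod in the libraries labelled Ovol1 null, with a median log2 ratio of -0.97, or -0.31 in matched-depth cells, where 4 were lower and 3 higher of 17. Axin2, a feedback target of the pathway, had 4.53 CPM in labelled Ovol1_null_IMQ, 10.6 in Control_IMQ, 19.3 in labelled Ovol1_null_Untreated and 22.5 in Control_Untreated, and Rspo3, an R-spondin, had 0.0855 CPM in labelled Ovol1_null_IMQ, 8.79 in Control_IMQ, 17.9 in labelled Ovol1_null_Untreated and 24.4 in Control_Untreated. In the Notch list 4 members were lower and 1 higher of 9, among them the ligand Dll1 with 6.93 CPM in labelled Ovol1_null_IMQ, 24.2 in Control_IMQ, 23.1 in labelled Ovol1_null_Untreated and 29.05 in Control_Untreated. In matched-depth cells the Notch list gave 0 higher and 1 lower of 9 (median log2 ratio 0.15), so that its lower members at full depth were mostly not seen there.

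Interferon-stimulated genes were high in both imiquimod libraries. Promoter sequences are shown for 4 of them because 14 of the 23 list members that could be searched carry the same short element there. In the RefSeq promoter table (GRCm38.p6, 250 bases before to 50 after the start), the letters GAAANNGAAA, the core of the interferon-stimulated response element, occurred on either strand in 60.9% of those 23, which are the members in the table out of 32, against 1079 of 27025 promoters in all (3.99%). Matches may overlap when the repeat continues. A match is a description of letters and shows no binding. In these windows of 60 bases, written 5′ to 3′ on the strand of the gene, 1 match is in capitals.
Isg15, chr4:156200862-156200921, minus strand: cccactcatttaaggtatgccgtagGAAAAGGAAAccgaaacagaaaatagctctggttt
Ifit1, chr19:34640760-34640819, plus strand: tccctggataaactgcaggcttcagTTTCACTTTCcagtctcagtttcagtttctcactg
Oas1a, chr5:120907511-120907570, minus strand: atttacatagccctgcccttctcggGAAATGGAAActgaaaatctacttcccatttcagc
Bst2, chr8:71537568-71537627, minus strand: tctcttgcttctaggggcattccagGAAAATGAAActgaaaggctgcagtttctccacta

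Isg15, a ubiquitin-like modifier, had 202 CPM in labelled Ovol1_null_IMQ, 139.9 in Control_IMQ, 4.48 in labelled Ovol1_null_Untreated and 1.92 in Control_Untreated. Ifit1, which binds uncapped viral RNA, had 25.2 CPM in labelled Ovol1_null_IMQ, 71.5 in Control_IMQ, 1.254 in labelled Ovol1_null_Untreated and 0.274 in Control_Untreated. Oas1a, an oligoadenylate synthetase, had 41.7 CPM in labelled Ovol1_null_IMQ, 44.6 in Control_IMQ, 0.716 in labelled Ovol1_null_Untreated and 1.096 in Control_Untreated. Bst2, tetherin, had 396 CPM in labelled Ovol1_null_IMQ, 319.8 in Control_IMQ, 10.7 in labelled Ovol1_null_Untreated and 17.5 in Control_Untreated. In each of them both imiquimod libraries lay above both untreated libraries. Ifi27l2a was the most abundant of the list, with 1209 CPM in labelled Ovol1_null_IMQ, 1779 in Control_IMQ, 14.1 in labelled Ovol1_null_Untreated and 28.8 in Control_Untreated. It was 85.5-fold higher (95% interval 68.5 to 108) with imiquimod in the libraries labelled Ovol1 null and 61.8-fold higher (95% interval 51.03 to 75.6) in the control libraries.

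Over the list, 27 of 29 measured members were higher with imiquimod in the libraries labelled Ovol1 null (median log2 ratio 3.15) and 30 of 30 in the control libraries (4.44, or 3.28 with members at 0 set to their bound), and none was lower in either. In matched-depth cells 21 of 21 were higher in the libraries labelled Ovol1 null. Several members, such as Oas2, Ifit1 and Oasl2, had few or no UMIs in the untreated libraries. These were measured mainly through their level in the imiquimod libraries, which favours a call of higher. The counts of higher members with imiquimod are therefore a description only. Labelled Ovol1_null_IMQ stood lower than Control_IMQ in 8 members and higher in 1 of 31 (median log2 ratio -0.64, and -0.33 in matched-depth cells). Oasl2 had 57.5 CPM in labelled Ovol1_null_IMQ, 118 in Control_IMQ, 1.61 in labelled Ovol1_null_Untreated and 1.096 in Control_Untreated and was 2.06-fold lower (95% interval 1.86 to 2.28) in labelled Ovol1_null_IMQ than in Control_IMQ. Oas2, the member that was higher, had 8.896 CPM in labelled Ovol1_null_IMQ, 3.52 in Control_IMQ, 0 in labelled Ovol1_null_Untreated and 0 in Control_Untreated. The transcription factor Irf7, which amplifies the interferon response, had 78.2 CPM in labelled Ovol1_null_IMQ, 85.3 in Control_IMQ, 1.79 in labelled Ovol1_null_Untreated and 2.19 in Control_Untreated and did not pass between the imiquimod libraries.

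The same genes were high in other cells of the imiquimod libraries. Summed over the list, the level in basal cells was 2581 CPM in labelled Ovol1_null_IMQ against 4145 CPM in its fibroblasts, and 3375 CPM in Control_IMQ against 3395 CPM in its fibroblasts. Basal cells stood above fibroblasts in 8 of 32 members in labelled Ovol1_null_IMQ and in 10 of 31 in Control_IMQ. Between the fibroblasts of the libraries labelled Ovol1 null 28 of 32 measured members were higher with imiquimod, and between those of the control libraries 30 of 31. The part of free RNA from other cells in the basal values of members below the fibroblast level was not tested. Ifi27l2a was among the members above it, at 469 and 445 CPM in the fibroblasts of labelled Ovol1_null_IMQ and Control_IMQ.

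**Figure D2:**
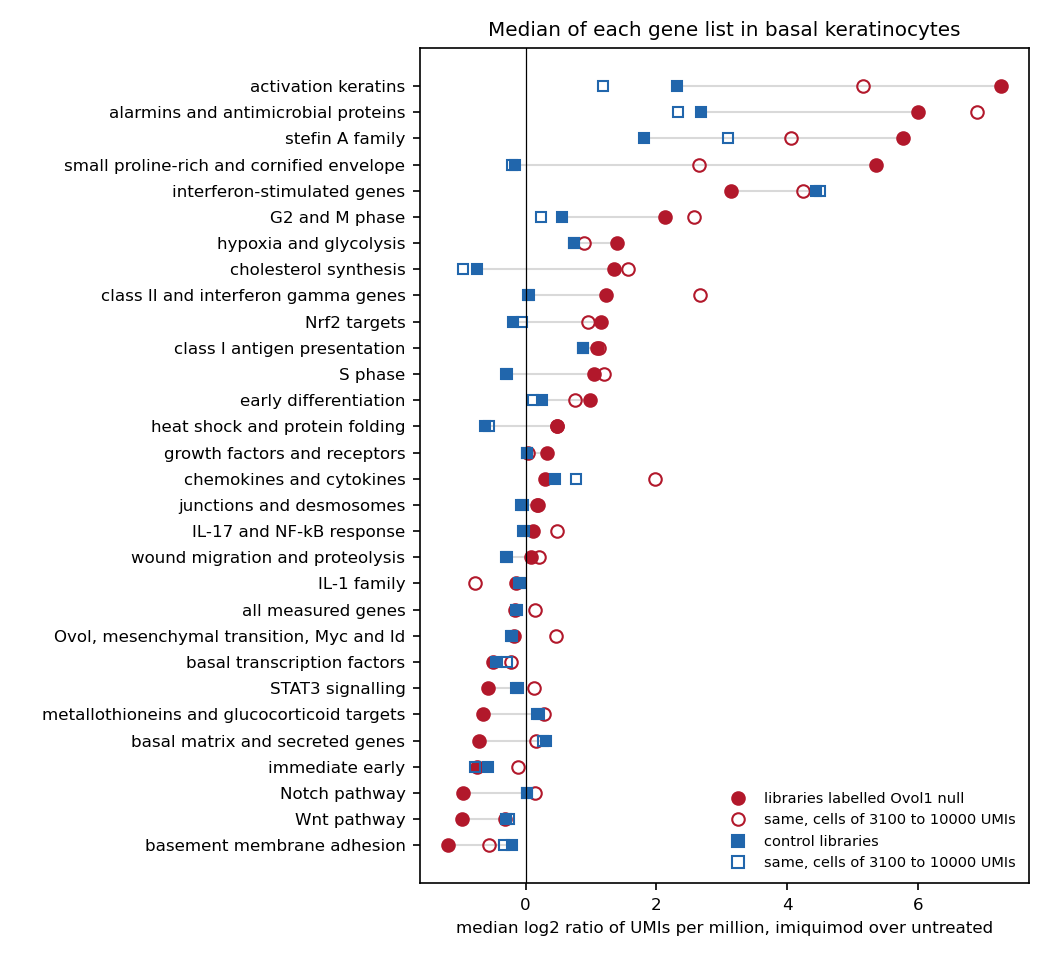
Median log2 ratio of imiquimod over untreated for each gene list in basal keratinocytes, with circles for the libraries labelled Ovol1 null, squares for the control libraries and open symbols for cells of 3100 to 10000 UMIs. The interferon list lies well to the right in both, while the cholesterol synthesis and S phase lists lie to the right of 0 in the libraries labelled Ovol1 null and to the left in the control libraries.

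Antigen presentation genes differed by class. Of the class I genes 10 of 16 were higher with imiquimod in the libraries labelled Ovol1 null and 6 of 16 in the control libraries, and in matched-depth cells 9 of 16 were higher in the libraries labelled Ovol1 null. Psmb8, a subunit of the immunoproteasome, had 436 CPM in labelled Ovol1_null_IMQ, 411 in Control_IMQ, 196 in labelled Ovol1_null_Untreated and 195 in Control_Untreated, and B2m, the light chain of class I molecules, had 5793 CPM in labelled Ovol1_null_IMQ, 4677 in Control_IMQ, 2715 in labelled Ovol1_null_Untreated and 2906 in Control_Untreated. Of the class II genes Cd74, the invariant chain, had 414 CPM in labelled Ovol1_null_IMQ, 292 in Control_IMQ, 296 in labelled Ovol1_null_Untreated and 1079.6 in Control_Untreated, and H2-Eb1, a class II beta chain, had 8.64 CPM in labelled Ovol1_null_IMQ, 5.15 in Control_IMQ, 3.58 in labelled Ovol1_null_Untreated and 120.3 in Control_Untreated. Between the untreated libraries 4 members of this list were lower and 0 higher of 8 (median log2 ratio -1.22). Those 4 were H2-Aa, H2-Ab1, H2-Eb1 and Cd74, genes of Langerhans cells and other antigen-presenting cells. In Control_Untreated 5 cells held 63.02% of the Cd74 UMIs. When cells with at least 2 UMIs over 10 immune genes were left out, an alternative chosen after seeing the data, the median became 0.17 and H2-Aa, H2-Ab1 and Cd74 no longer stood lower in labelled Ovol1_null_Untreated. Gbp2, an interferon-gamma-induced guanylate-binding protein that is in the same list, had 15.3 CPM in labelled Ovol1_null_IMQ, 36.4 in Control_IMQ, 4.48 in labelled Ovol1_null_Untreated and 4.38 in Control_Untreated and was higher with imiquimod in both genotype labels.

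Genes of DNA replication were higher in labelled Ovol1_null_IMQ, where the rule removed only part of the cells with cycling genes. Kept cells with 3 UMIs of the cycling genes numbered 46 in labelled Ovol1_null_IMQ, 14 in Control_IMQ, 3 in labelled Ovol1_null_Untreated and 1 in Control_Untreated. Mki67 stood at 9.15, 3.89, 2.33 and 2.47 CPM in the kept cells of those libraries, and Birc5 at 15.1, 5.53, 3.58 and 3.56 CPM. The part of such cells in the replication genes was not tested. Between the libraries labelled Ovol1 null 12 of 21 S phase genes were higher with imiquimod and 0 lower (median log2 ratio 1.05, and 1.21 in matched-depth cells). Between the control libraries 1 of 19 was higher, Rrm2 (-0.28), and in labelled Ovol1_null_IMQ against Control_IMQ 15 of 21 were higher. Mcm5, a subunit of the replicative helicase, had 36.5 CPM in labelled Ovol1_null_IMQ, 8.29 in Control_IMQ, 6.98 in labelled Ovol1_null_Untreated and 8.22 in Control_Untreated. Uhrf1, which maintains DNA methylation at replication forks, had 24.6 CPM in labelled Ovol1_null_IMQ, 3.39 in Control_IMQ, 5.37 in labelled Ovol1_null_Untreated and 4.93 in Control_Untreated, and Ung, uracil-DNA glycosylase, had 38.5 CPM in labelled Ovol1_null_IMQ, 9.04 in Control_IMQ, 8.596 in labelled Ovol1_null_Untreated and 10.7 in Control_Untreated. Pcna, the sliding clamp, had 37.1 CPM in labelled Ovol1_null_IMQ, 20.1 in Control_IMQ, 20.95 in labelled Ovol1_null_Untreated and 18.9 in Control_Untreated and did not pass. The rule removed cells with 4 or more UMIs of Mki67, Top2a, Ube2c and Birc5, a limit that is not scaled to depth. Excluded basal cells numbered 249 in labelled Ovol1_null_IMQ, 73 in Control_IMQ, 91 in labelled Ovol1_null_Untreated and 65 in Control_Untreated. Genes of G2 and M phase, which are close to the rule, are therefore given only as a description: Cdc20, an activator of the anaphase-promoting complex, had 21.1 CPM in labelled Ovol1_null_IMQ, 5.78 in Control_IMQ, 2.69 in labelled Ovol1_null_Untreated and 2.47 in Control_Untreated. In the fibroblasts of the libraries labelled Ovol1 null 0 of 19 S phase genes were higher and 1 lower, and in the suprabasal cells 2 were higher and 4 lower of 16.

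Cholesterol synthesis genes were higher with imiquimod in the libraries labelled Ovol1 null and lower in the control libraries. Between the libraries labelled Ovol1 null 11 of 17 were higher and 0 lower (median log2 ratio 1.35, and 1.56 in matched-depth cells). Between the control libraries 6 were lower and 0 higher of 17 (-0.74). Labelled Ovol1_null_IMQ stood above Control_IMQ in 16 of 17 (2.28), and the untreated libraries differed past the rule in none (-0.095). In matched-depth cells, however, 3 of 17 were lower in labelled Ovol1_null_Untreated than in Control_Untreated, with a median of -0.397. Sqle, squalene epoxidase, had 57.5 CPM in labelled Ovol1_null_IMQ, 2.39 in Control_IMQ, 4.66 in labelled Ovol1_null_Untreated and 3.01 in Control_Untreated. Idi1, isopentenyl-diphosphate isomerase, had 82.3 CPM in labelled Ovol1_null_IMQ, 7.03 in Control_IMQ, 17.7 in labelled Ovol1_null_Untreated and 29.6 in Control_Untreated, and Fdps, which makes farnesyl diphosphate, had 194 CPM in labelled Ovol1_null_IMQ, 34.04 in Control_IMQ, 51.6 in labelled Ovol1_null_Untreated and 76.7 in Control_Untreated. Idi1 was 4.64-fold higher (95% interval 3.77 to 5.77) with imiquimod in the libraries labelled Ovol1 null and 4.21-fold lower (95% interval 3.02 to 5.92) in the control libraries. Hmgcs1, an early enzyme of the pathway, had 108 CPM in labelled Ovol1_null_IMQ, 112 in Control_IMQ, 81.7 in labelled Ovol1_null_Untreated and 101 in Control_Untreated and was the only member of the list that passed in no comparison. Fibroblasts of the same libraries gave 9 higher and 0 lower of 17 in the libraries labelled Ovol1 null, and 0 higher and 8 lower of 17 in the control libraries, so that fibroblasts had the same directions. Summed levels of the list in basal cells were above those in fibroblasts, at 873 against 370.4 CPM in labelled Ovol1_null_IMQ.

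Glycolysis genes and targets of the hypoxia response were higher with imiquimod in both genotype labels, in 14 of 20 in the libraries labelled Ovol1 null (median log2 ratio 1.398, and 0.900 in matched-depth cells) and 6 of 20 in the control libraries (0.75), and none was lower. Egln3, a prolyl hydroxylase induced by hypoxia, had 103 CPM in labelled Ovol1_null_IMQ, 64.3 in Control_IMQ, 11.8 in labelled Ovol1_null_Untreated and 9.32 in Control_Untreated. Slc2a1, the glucose transporter GLUT1, had 188 CPM in labelled Ovol1_null_IMQ, 124 in Control_IMQ, 66.97 in labelled Ovol1_null_Untreated and 53.7 in Control_Untreated. Gapdh had 1693 CPM in labelled Ovol1_null_IMQ, 712 in Control_IMQ, 377 in labelled Ovol1_null_Untreated and 382 in Control_Untreated, and Ldha, lactate dehydrogenase, had 1159 CPM in labelled Ovol1_null_IMQ, 433 in Control_IMQ, 264 in labelled Ovol1_null_Untreated and 267 in Control_Untreated. Gapdh was 4.49-fold higher (95% interval 4.29 to 4.695) with imiquimod in the libraries labelled Ovol1 null and 1.86-fold higher (95% interval 1.76 to 1.98) in the control libraries, where it was within the rule. Hif1a had 86.8 CPM in labelled Ovol1_null_IMQ, 57.5 in Control_IMQ, 80.05 in labelled Ovol1_null_Untreated and 83.3 in Control_Untreated and did not pass. Among Nrf2 targets 6 of 12 were higher in the libraries labelled Ovol1 null and 0 of 10 in the control libraries, and in matched-depth cells 5 of 11 were higher in the libraries labelled Ovol1 null. Slc7a11, the cystine transporter, had 19.1 CPM in labelled Ovol1_null_IMQ, 0.377 in Control_IMQ, 0 in labelled Ovol1_null_Untreated and 0 in Control_Untreated.

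Glucocorticoid-responsive genes were lower in labelled Ovol1_null_IMQ than in Control_IMQ in 5 of 10 members of their list and higher in 0. In matched-depth cells 2 of 10 were lower and 0 higher (median log2 ratio -0.42). Tsc22d3, also known as Gilz, had 87.8 CPM in labelled Ovol1_null_IMQ, 647 in Control_IMQ, 319 in labelled Ovol1_null_Untreated and 573 in Control_Untreated, Fkbp5 had 16.5 CPM in labelled Ovol1_null_IMQ, 56.1 in Control_IMQ, 28.7 in labelled Ovol1_null_Untreated and 28.5 in Control_Untreated, and Zbtb16 had 3.08 CPM in labelled Ovol1_null_IMQ, 41.2 in Control_IMQ, 40.1 in labelled Ovol1_null_Untreated and 36.4 in Control_Untreated. Tsc22d3 was 7.37-fold lower (95% interval 6.89 to 7.89) in labelled Ovol1_null_IMQ than in Control_IMQ, with 192 against 647 CPM in matched-depth cells. The metallothioneins Mt1 and Mt2 of the same list were not lower, Mt2 with 4304 CPM in labelled Ovol1_null_IMQ, 2745 in Control_IMQ, 2077 in labelled Ovol1_null_Untreated and 2616 in Control_Untreated. Txnip, a thioredoxin inhibitor, had 58.7 CPM in labelled Ovol1_null_IMQ, 618 in Control_IMQ, 251 in labelled Ovol1_null_Untreated and 415 in Control_Untreated. Of the immediate early genes, which tissue dissociation can induce, Fos was below the untreated levels in both imiquimod libraries, with 481 CPM in labelled Ovol1_null_IMQ, 759 in Control_IMQ, 1162 in labelled Ovol1_null_Untreated and 1374 in Control_Untreated. Over all basal cells Fos passed the rule only between the libraries labelled Ovol1 null. In matched-depth cells of those libraries 3 of 17 immediate early genes were higher with imiquimod and 0 lower (median log2 ratio -0.11). Between the control libraries at that depth 0 were higher and 3 lower of 17 (-0.77).

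The 2 imiquimod comparisons share no library, so their genes can be set against each other. Of 10890 genes measured in both, 891 were higher in the libraries labelled Ovol1 null and 482 in the control libraries, and 213 were higher in both, which is 23.9% of the first list and 44.2% of the second. Lower genes numbered 1804 and 495 in that order, with 220 shared, or 12.2% and 44.4%. Genes higher in the first and lower in the second numbered 31, and genes lower in the first and higher in the second 50. Over all genes measured in each comparison, 9.61% were higher and 16.4% lower in the libraries labelled Ovol1 null, and 4.72% and 4.78% in the control libraries. The shared and opposite counts are to be read against these shares and were not tested. The ratio between both imiquimod ratios was most in favour of the libraries labelled Ovol1 null for Gjb2, at 863-fold (95% interval 182 to 4088). Among the next were Krt6b at 95.7-fold (95% interval 3.81 to 2405), S100a8 at 54.6-fold (95% interval 3.01 to 991) and Krt6a at 49.4-fold (95% interval 30.5 to 80.00). A count of 0.5 was added to every UMI sum for these ratios of ratios. Their intervals are normal approximations on the log scale, not exact binomial intervals, and cover counting error only. Gjb2 had 2 UMIs in labelled Ovol1_null_Untreated, so its value also depends on the added count. Krt6b and S100a8 had no UMI in Control_Untreated, so their values rest on it. Defb3, Sprr1b and Sprr2h, ranked above Krt6b, likewise had no UMI in at least 1 untreated library. H2-Eb1 was also among the highest, at 54.6-fold (95% interval 30.9 to 96.8), through its level in Control_Untreated. Against the libraries labelled Ovol1 null the ratio was most extreme for Gzmc, granzyme C, at 186-fold (95% interval 74.7 to 464). Gzmc had 0.599 CPM in labelled Ovol1_null_IMQ, 63.4 in Control_IMQ, 8.42 in labelled Ovol1_null_Untreated and 4.38 in Control_Untreated, is a gene of cytotoxic lymphocytes, and had 56.6% of its UMIs of Control_IMQ in 1 cell. Ccl21a, of which 1 cell of labelled Ovol1_null_Untreated held most UMIs, followed at 35.2-fold (95% interval 19.4 to 63.8), then Ccl27a at 34.7-fold (95% interval 33.2 to 36.2), and Krt77 and Serpinb7 were among the next. Serpinb7, an epidermal serine protease inhibitor, had 2.22 CPM in labelled Ovol1_null_IMQ, 38.2 in Control_IMQ, 59.6 in labelled Ovol1_null_Untreated and 53.2 in Control_Untreated.

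**Figure D3:**
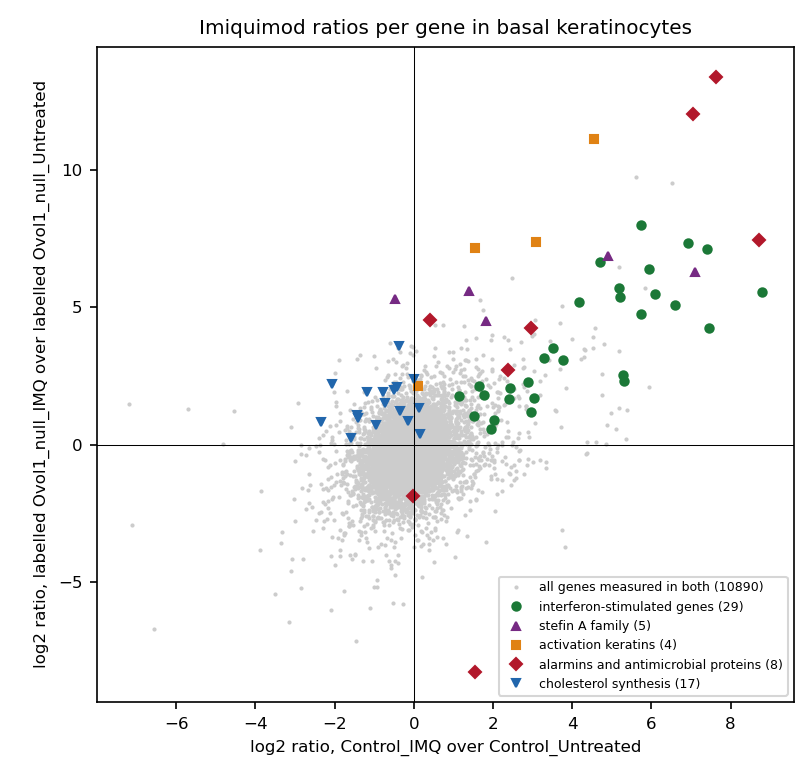
Log2 ratio of imiquimod over untreated for each gene measured in both comparisons, with the control libraries on the horizontal axis, the libraries labelled Ovol1 null on the vertical axis and 5 gene lists in colour. A count of 0.5 was added to both UMI sums, so points of genes with no UMI in 1 library depend on that value. Interferon genes lie in the upper right. The activation keratins, stefins and most alarmins also lie above 0 on the vertical axis, over a range that overlaps the interferon genes, and cholesterol synthesis genes lie mostly to the upper left.

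Without treatment fewer genes passed the rule than in the other comparisons. BC100530 and Stfa3 are given above, and Krt16 was 3.92-fold higher (95% interval 1.84 to 9.598) in labelled Ovol1_null_Untreated than in Control_Untreated, at levels below 10 CPM in both, with 47.9% of its UMIs of labelled Ovol1_null_Untreated in 1 cell. Of the BC100530 UMIs of that library 1 cell of 145 held 26.9%. Baiap2l1, which encodes an actin-bundling adaptor, had 11.04 CPM in labelled Ovol1_null_IMQ, 14.3 in Control_IMQ, 215 in labelled Ovol1_null_Untreated and 18.9 in Control_Untreated and was 11.4-fold higher (95% interval 8.91 to 14.7). It was high in that library alone, where 615 cells held it and no cell more than 0.917% of its UMIs. Chit1, a chitinase of macrophages, had 123 CPM in labelled Ovol1_null_IMQ, 171 in Control_IMQ, 78.1 in labelled Ovol1_null_Untreated and 12.9 in Control_Untreated, and Ccl21a, a lymphatic chemokine with near-identical copies, had 75.8 CPM in labelled Ovol1_null_IMQ, 129 in Control_IMQ, 65.00 in labelled Ovol1_null_Untreated and 3.01 in Control_Untreated, with 92.01% of its UMIs of labelled Ovol1_null_Untreated in 1 cell. Rps26-ps1, Rpl13a-ps1 and Gm10076, pseudogenes or copies of ribosomal genes whose reads can be shared with the parent gene, were also among the 12 with the largest ratio, with 304 CPM in labelled Ovol1_null_IMQ, 1196 in Control_IMQ, 829.8 in labelled Ovol1_null_Untreated and 218 in Control_Untreated for the first. Among the 12 with the smallest ratio, besides the class II genes, were Lyz2, lysozyme of myeloid cells, with 4.19 CPM in labelled Ovol1_null_IMQ, 21.98 in Control_IMQ, 74.9 in labelled Ovol1_null_Untreated and 184 in Control_Untreated, and Ccl4, a chemokine of leukocytes, with 3.42 CPM in labelled Ovol1_null_IMQ, 34.7 in Control_IMQ, 25.1 in labelled Ovol1_null_Untreated and 107 in Control_Untreated. In Control_Untreated 5 cells held 66.96% of the UMIs of the first and 85.6% of those of the second. Activation keratins other than Krt16, S phase, cholesterol and glycolysis genes did not pass between the untreated libraries.

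Further genes lower with imiquimod in the control libraries included several that are not made by keratinocytes. Col1a1, type I collagen of fibroblasts, had 270.3 CPM in labelled Ovol1_null_IMQ, 189.7 in Control_IMQ, 1159.5 in labelled Ovol1_null_Untreated and 1186 in Control_Untreated, and Col3a1 had 175 CPM in labelled Ovol1_null_IMQ, 135 in Control_IMQ, 783 in labelled Ovol1_null_Untreated and 633 in Control_Untreated, in step with the fibroblast levels given above. Tppp3 had 39.6 CPM in labelled Ovol1_null_IMQ, 37.9 in Control_IMQ, 269.5 in labelled Ovol1_null_Untreated and 301 in Control_Untreated, and Gpha2, the alpha subunit of thyrostimulin, had 7.01 CPM in labelled Ovol1_null_IMQ, 15.1 in Control_IMQ, 63.4 in labelled Ovol1_null_Untreated and 151 in Control_Untreated. Igfbp5 had 7.27 CPM in labelled Ovol1_null_IMQ, 5.903 in Control_IMQ, 87.4 in labelled Ovol1_null_Untreated and 60.8 in Control_Untreated. These were low in both imiquimod libraries. Orm1, an acute-phase plasma protein, had 77.5 CPM in labelled Ovol1_null_IMQ, 104 in Control_IMQ, 6.63 in labelled Ovol1_null_Untreated and 4.38 in Control_Untreated and was high in both.

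At the level of single cells the alarmins marked most basal cells of labelled Ovol1_null_IMQ. Cells were thinned to 2000 UMIs each, which kept 822 cells in labelled Ovol1_null_IMQ, 1377 in Control_IMQ, 983 in labelled Ovol1_null_Untreated and 682 in Control_Untreated and left out 0, 72, 27 and 23. S100a8 was then detected in 76.4% of basal cells in labelled Ovol1_null_IMQ, 2.25% in Control_IMQ, 0.407% in labelled Ovol1_null_Untreated and 0 of 682 in Control_Untreated, where 3 cells would be 0.4399%. Without thinning the shares were 88.9%, 4.97%, 0.495% and 0%. In the fibroblasts, which should lack the gene, the thinned share was 26.1% in labelled Ovol1_null_IMQ and 1.43% in Control_IMQ; these were thinned to the same depth. Krt6a was detected in 57.9% of thinned basal cells of labelled Ovol1_null_IMQ and 2.905% in Control_IMQ, against 3.24% and 0.333% of their fibroblasts. The Control_IMQ shares of S100a8 in basal cells and fibroblasts were thus close to each other.

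Krt15 was detected in 38.1% of thinned basal cells of labelled Ovol1_null_IMQ, 95.8% in Control_IMQ, 97.4% in labelled Ovol1_null_Untreated and 96.6% in Control_Untreated. Its share in fibroblasts was 3.58%, 46.8%, 44.2% and 16.1% in that order. Ifi27l2a was detected in 76.3%, 85.9%, 2.85% and 4.69% of thinned basal cells in the same order, and in 29.2% and 41.4% of the fibroblasts of the imiquimod libraries. Most basal cells of both imiquimod libraries thus held an interferon-stimulated transcript, whereas most cells without Krt15 and with S100a8 came from labelled Ovol1_null_IMQ.

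**Figure D4:**
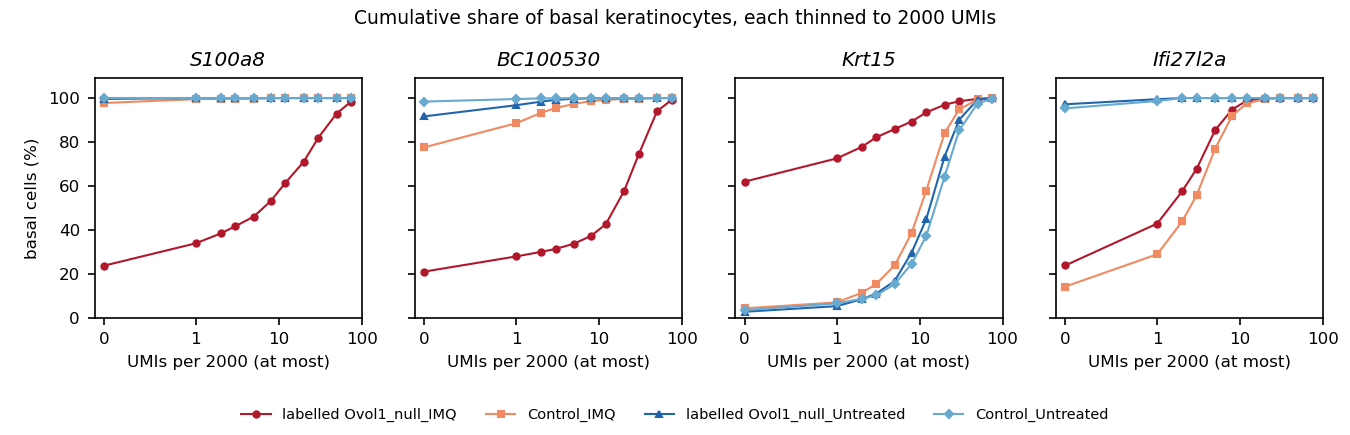
Cumulative share of basal keratinocytes, in percent, with at most the given number of UMIs of S100a8, BC100530, Krt15 or Ifi27l2a after thinning to 2000 UMIs, 1 line per library and a log horizontal axis beyond 1. The line labelled Ovol1_null_IMQ lies apart from the other 3 for S100a8, BC100530 and Krt15, while both imiquimod lines lie together for Ifi27l2a.

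Within labelled Ovol1_null_IMQ the cells were not uniform. After thinning, 207 of the 822 cells (25.2%) held both Krt15 and S100a8 or S100a9, 471 (57.3%) held S100a8 or S100a9 without Krt15, 106 (12.9%) held Krt15 without either, and 38 (4.62%) held none. The cells were also ranked by S100a8 and S100a9 UMIs and cut into 4 groups of 205 or 206, as a description with no test. Mean Krt15 was 7.03, 3.02, 0.737 and 0.229 UMIs per 2000 from the lowest to the highest group. In the same order Krt16 was 0.0583, 0.621, 1.96 and 4.08, and Krt6a was 0.534, 1.248, 2.77 and 4.59. BC100530 was 5.602, 17.3, 24.5 and 29.8, Krtdap was 4.75, 8.47, 15.01 and 21.5, and Fabp5 was 0.626, 2.47, 5.07 and 9.58. All 5 were higher in each group than in the one before. Ifi27l2a ran the other way, at 3.44, 3.16, 2.48 and 2.06. Of the remaining activation keratins Krt6b was 0.00485, 0.180, 0.746 and 1.97, whereas Krt17 was 4.91, 2.61, 3.10 and 4.77 and thus highest in the lowest group. Krt10, a gene of the cell rule, was 0.583, 1.29, 2.73 and 2.48. Median depth before thinning also differed along this order, at 7202, 12346, 14306 and 18966 UMIs, and depth and the S100 level cannot be told apart in it.

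**Figure D5:**
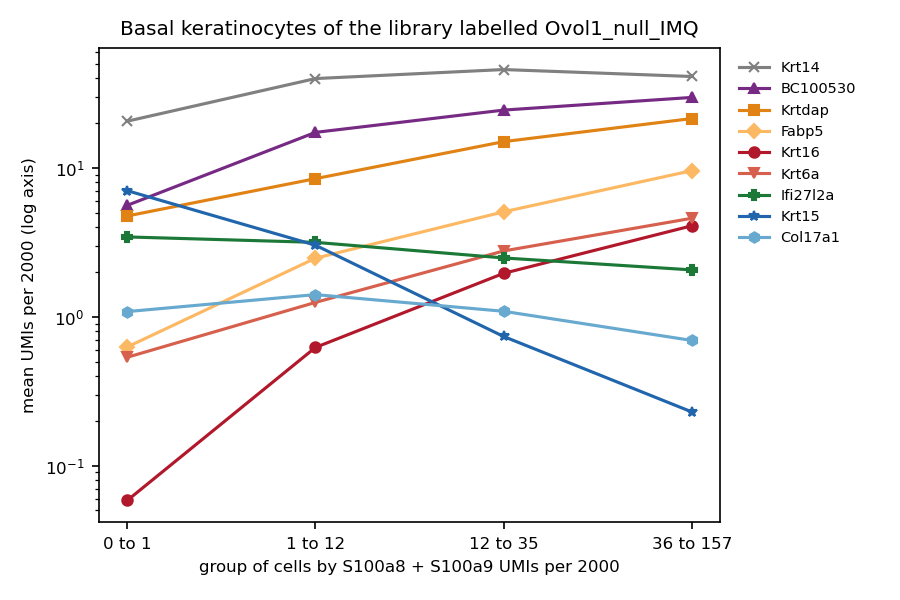
Mean UMIs per 2000, on a log axis, of 9 genes in the basal keratinocytes of the library labelled Ovol1_null_IMQ, cut into 4 groups by their S100a8 and S100a9 UMIs after thinning. Krt16, Krt6a, Fabp5 and Krtdap are higher and Krt15 is lower from the first group to the last, whereas Krt14 differs by less.

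Set beside the suprabasal keratinocytes of the same libraries, several lists had the same direction. With imiquimod in the libraries labelled Ovol1 null all 4 activation keratins were higher in suprabasal cells too (median log2 ratio 10.07, against 7.28 in basal cells), and 6 of 6 stefins. Of basement membrane adhesion genes 12 of 14 were lower in suprabasal cells. Cholesterol synthesis genes were higher in 17 of 17 in suprabasal cells of the libraries labelled Ovol1 null, and in the control libraries 2 were higher and 0 lower. S phase genes, given above, had medians of opposite sign, 1.05 in basal and -0.25 in suprabasal cells. The difference between the cell classes was not tested, since each class of a library is 1 sample.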

How the data were processed

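Expression was measured by droplet 3′ single-cell RNA sequencing of sorted back-skin cells in 4 libraries, 1 for each combination of genotype label and treatment. The deposited values are whole-number UMI counts, in a matrix of 23455 barcodes by 27998 genes. Cell Ranger 2.1.0 and mm10 made them per the submitters' processing notes, and per the labels the libraries were combined by an aggregation step with a barcode suffix for each. The sources used here do not state whether that step equalised depth, which would change the UMIs per cell, nor which annotation was counted. Symbols were matched to GENCODE M21 names for 27645 IDs.

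Kept were 22819 barcodes that had at least 200 detected genes and a mitochondrial share of 10% or less, and basal cells were taken by the stated rule, from 3649440 to 11690065 UMIs a library. Doublets were kept, since the rule does not name them: Scrublet in scanpy 1.11.5, at an expected rate of 0.05, called 1.47% to 2.36% of kept barcodes and between 9 and 34 basal cells a library, and leaving them out was an alternative. Counts were summed over cells of a class and scaled to CPM. Ratios between libraries had exact conditional binomial 95% intervals, levels of 0 a limit of 3 counts, and log2 ratios an added count of 0.5. Ratios between imiquimod ratios had the same added count and 95% intervals from a normal approximation on the log scale. No test across libraries was possible with 1 library a group. Ratio and call code was tested on simulated data. The class of suprabasal cells had at least as many Krt1 and Krt10 as Krt5 and Krt14 UMIs, and the class of fibroblasts at least 4 of the 8 fibroblast genes and more of them than of the epithelial ones. Alternatives changed the cell rule, depth, scaling, the UMI minimum and the fold, with TMM from edgeR 4.0.16 for scaling.

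The cells, gene lists and comparisons were chosen with earlier results of these data known. Genes were named as the 12 largest and 12 smallest ratios of a comparison at 50 CPM or more, the extreme members of each list and those needed to say that a member did not pass. Some list members beyond the 4 most extreme were named after their values were seen. Python 3.11.15 and scipy 1.17.1 were used.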

Additional observations from a re-analysis of the deposited data

Results flagged for a closer look

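These results drew attention because imiquimod against untreated went in opposite directions in the libraries labelled Ovol1 null and in the control libraries, past the 2-fold rule in both for the genes and by at least 0.5 on the log2 scale in both for the list median. Each group is 1 library, so none of these differences was tested. Values are log2 of the ratio in the libraries labelled Ovol1 null over that in the control libraries, so that a positive value means a larger imiquimod ratio in the libraries labelled Ovol1 null.

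The median of the cholesterol synthesis list differed by 2.08, and its members Idi1 and Fdps by 4.28 and 3.08. Fabp5 differed by 4.25, and its direction in the control libraries turned round under 3 alternatives. Gjb6, connexin 30, differed by 4.98 and Areg, amphiregulin, by 4.60, with 209 UMIs of Areg in labelled Ovol1_null_IMQ and 20 in Control_IMQ. H2-Eb1 differed by 5.77, with 120 CPM in Control_Untreated and under 10 CPM in each other library. Its direction in the libraries labelled Ovol1 null turned round under 2 alternatives.

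Ccl27a differed by -5.12, lower with imiquimod in the libraries labelled Ovol1 null and higher in the control libraries. Gzmc differed by -7.54 and rested on few cells, with 57 of the 1449 basal cells of Control_IMQ holding it. Rps26-ps1, a copy of a ribosomal protein gene, differed by -3.91.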

How the results depend on the processing

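Counts of genes past the rule kept within 1.5 times the reported count in 73 recomputations under the alternatives and moved further in 23. For imiquimod in the libraries labelled Ovol1 null, lower genes numbered 1041 in cells thinned to 2000 UMIs, 670 in cells of 3100 to 10000 UMIs and 1004 at a minimum of 100 UMIs, and a fold of 1.5 gave 2048 higher and 3185 lower. In the control libraries higher and lower genes numbered 328 and 313 in thinned cells, 254 and 153 at 100 UMIs, and 817 and 1256 at a fold of 1.5. For labelled Ovol1_null_IMQ against Control_IMQ, lower genes numbered 850 in thinned cells, 572 in cells of 3100 to 10000 UMIs and 805 at 100 UMIs, and a fold of 1.5 gave 2336 higher and 2560 lower. Between the untreated libraries higher genes numbered 50 at 100 UMIs and 402 at a fold of 1.5, and lower genes 82 in thinned cells, 33 at 100 UMIs, 234 with no minimum, 323 at a fold of 1.5 and 92 without cells that held immune markers. A higher minimum leaves fewer genes, and a lower fold passes more. In thinned cells the cell rule was applied again to the thinned counts, which also changed the cells, to 898 in labelled Ovol1_null_IMQ, 1142 in Control_IMQ, 848 in labelled Ovol1_null_Untreated and 606 in Control_Untreated, and the parts of UMIs and cells in the lower counts were not separated. The cause of the lower counts at matched depth was not tested.

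List medians kept their value to within the median interval of their members in 1147 recomputations and moved in 127, and in 83 of all these a median of under 1 in size changed sign, 11 of them in cells of 3100 to 10000 UMIs. Medians of at least 1 in size turned round in 2: basement membrane adhesion between the imiquimod libraries was 0.036 in cells of 3100 to 10000 UMIs, and the class II list between the untreated libraries was 0.17 without cells that held immune markers. Log2 ratios of named genes stayed within their own interval in 4633 recomputations and moved outside it in 1044. Among named genes past the rule they turned round in 19, as follows. Without immune-marker cells, H2-Eb1 was -0.48 between the libraries labelled Ovol1 null; Ccl4, Cd74, H2-Aa and H2-Ab1 were 0.92, 0.88, 0.68 and 0.58 between the control libraries; and Ccl4, Cd74, H2-Aa, H2-Ab1 and Lyz2 were 0.62, 0.62, 0.14, 0.35 and 0.75 between the untreated libraries. In thinned cells H2-Eb1 was -0.083 between the libraries labelled Ovol1 null, Fabp5 0.78 between the control libraries and Gpha2 0.54 between the imiquimod libraries. Fabp5 was also 0.93 at a mitochondrial share of at most 5% and 0.68 with Krt79 and Sostdc1 under 2 per 10000. Between the imiquimod libraries Gpha2 was 1.11, Ctgf 0.82 and Cst6 0.503 in cells of 3100 to 10000 UMIs, and Gpha2 was 0.047 with each cell weighted the same. The cause was not tested.

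No paired analysis was possible because each group is 1 library and no replicate numbers pair the libraries. Leaving out a replicate was likewise not possible. Depth limits genes near 20 UMIs, and intervals cover counting error alone.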

Other observations

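The counts of further lists in basal keratinocytes are given here as a description, to be read against the shares over all measured genes. With imiquimod these shares were 9.61% higher and 16.4% lower in the libraries labelled Ovol1 null, and 4.72% and 4.78% in the control libraries. At matched depth the libraries labelled Ovol1 null gave 1080 higher and 670 lower of 10102 measured genes. Counts near these shares are no result about a list. Of the IL-17 and NF-kB response genes 3 of 18 measured members were higher and 0 lower with imiquimod in the libraries labelled Ovol1 null (median log2 ratio 0.11), and 0 higher and 1 lower of 18 in the control libraries (-0.03). At matched depth the libraries labelled Ovol1 null gave 5 higher and 0 lower of 18 (0.48). Nfkbiz, the IL-17 cofactor IκBζ, had 62.3 CPM in labelled Ovol1_null_IMQ, 76.7 in Control_IMQ, 65.9 in labelled Ovol1_null_Untreated and 71.8 in Control_Untreated and did not pass in any comparison. Zc3h12a, an RNase induced by IL-17, had 79.6 CPM in labelled Ovol1_null_IMQ, 43.3 in Control_IMQ, 14.1 in labelled Ovol1_null_Untreated and 32.1 in Control_Untreated. In the STAT3 signalling list 0 of 11 measured members were higher and 2 lower with imiquimod in the libraries labelled Ovol1 null (median log2 ratio -0.57), and 1 higher and 0 lower of 11 in the control libraries (-0.11). Matched-depth counts for this list in the libraries labelled Ovol1 null were 1 higher and 0 lower of 11 (0.13). Stat3 itself had 93.2 CPM in labelled Ovol1_null_IMQ, 63.3 in Control_IMQ, 49.8 in labelled Ovol1_null_Untreated and 57.8 in Control_Untreated and did not pass. Of the IL-1 family 1 of 8 measured members were higher and 2 lower with imiquimod in the libraries labelled Ovol1 null (median log2 ratio -0.14), and 0 higher and 1 lower of 8 in the control libraries (-0.08). At matched depth the libraries labelled Ovol1 null gave 1 higher and 0 lower of 7 (-0.78).

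In the list of Ovol genes and genes of mesenchymal transition 1 of 18 measured members were higher and 4 lower with imiquimod in the libraries labelled Ovol1 null (median log2 ratio -0.17), and 1 higher and 1 lower of 16 in the control libraries (-0.21). Matched-depth counts for this list in the libraries labelled Ovol1 null were 5 higher and 3 lower of 16 (0.46). Zeb1 and Snai1 were at or below 2 CPM in every library, and Vim, vimentin, had 142 CPM in labelled Ovol1_null_IMQ, 102 in Control_IMQ, 148 in labelled Ovol1_null_Untreated and 182 in Control_Untreated. Myc had 31.99 CPM in labelled Ovol1_null_IMQ, 47.4 in Control_IMQ, 41.7 in labelled Ovol1_null_Untreated and 50.4 in Control_Untreated and did not pass in any comparison. Tgfbi, a matrix protein of basal cells, had 189 CPM in labelled Ovol1_null_IMQ, 472 in Control_IMQ, 415 in labelled Ovol1_null_Untreated and 419.8 in Control_Untreated and was 2.495-fold lower (95% interval 2.37 to 2.63) in labelled Ovol1_null_IMQ than in Control_IMQ. Of the heat shock and protein folding genes 2 of 17 measured members were higher and 2 lower with imiquimod in the libraries labelled Ovol1 null (median log2 ratio 0.48), and 0 higher and 1 lower of 17 in the control libraries (-0.62). At matched depth the libraries labelled Ovol1 null gave 1 higher and 0 lower of 17 (0.48). Hspa5, the chaperone BiP, had 417 CPM in labelled Ovol1_null_IMQ, 151 in Control_IMQ, 211 in labelled Ovol1_null_Untreated and 241 in Control_Untreated, and Hspd1, the mitochondrial chaperone, had 259.7 CPM in labelled Ovol1_null_IMQ, 94.3 in Control_IMQ, 112 in labelled Ovol1_null_Untreated and 145 in Control_Untreated.

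In the list of matrix and secreted genes 0 of 12 measured members were higher and 4 lower with imiquimod in the libraries labelled Ovol1 null (median log2 ratio -0.71), and 1 higher and 2 lower of 12 in the control libraries (0.31). Matched-depth counts for this list in the libraries labelled Ovol1 null were 2 higher and 2 lower of 11 (0.16). Ctgf, a connective tissue growth factor, had 20.6 CPM in labelled Ovol1_null_IMQ, 88.9 in Control_IMQ, 38.7 in labelled Ovol1_null_Untreated and 28.8 in Control_Untreated. In matched-depth cells it stood at 114 CPM in labelled Ovol1_null_IMQ and 64.8 CPM in Control_IMQ. Cyr61, another matricellular protein, had 87.3 CPM in labelled Ovol1_null_IMQ, 105 in Control_IMQ, 268 in labelled Ovol1_null_Untreated and 343 in Control_Untreated. Of the wound migration and proteolysis genes 2 of 15 measured members were higher and 4 lower with imiquimod in the libraries labelled Ovol1 null (median log2 ratio 0.08), and 2 higher and 3 lower of 14 in the control libraries (-0.297). At matched depth the libraries labelled Ovol1 null gave 4 higher and 2 lower of 13 (0.200). Tnc, tenascin C, had 9.75 CPM in labelled Ovol1_null_IMQ, 1.38 in Control_IMQ, 3.94 in labelled Ovol1_null_Untreated and 2.47 in Control_Untreated, and Serpinb2, an intracellular protease inhibitor, had 127 CPM in labelled Ovol1_null_IMQ, 225 in Control_IMQ, 317 in labelled Ovol1_null_Untreated and 459 in Control_Untreated, lower in both imiquimod libraries. Of the basal transcription factors 1 of 10 measured members were higher and 3 lower with imiquimod in the libraries labelled Ovol1 null (median log2 ratio -0.502), and 0 higher and 0 lower of 10 in the control libraries (-0.45). Matched-depth counts for this list in the libraries labelled Ovol1 null were 0 higher and 1 lower of 9 (-0.22). Sox6 had 7.699 CPM in labelled Ovol1_null_IMQ, 24.2 in Control_IMQ, 37.1 in labelled Ovol1_null_Untreated and 33.7 in Control_Untreated. The medians of the STAT3, Ovol and matrix lists in the libraries labelled Ovol1 null thus had the opposite sign at matched depth.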
